A study of Mus musculus with 2 samples.

Results

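Meg3, Rian, Mirg, H19, Igf2, Plagl1, Peg3, Igf2r, Cdkn1c and Grb10 are imprinted genes with known roles in growth, and their RNA was followed through the nucleus classes of 2 libraries from mouse hearts. The 10 genes were taken by symbol from the 32245 gene symbols of the deposited matrices. The genes were selected on their class levels and CF-KI over control ratios in these same libraries, so every level and ratio below is a description and carries no test. Nuclei of cardiac tissue were profiled by single-nucleus RNA sequencing with a 10x Genomics 3′ v3 kit, in 1 library for each of 2 genotypes. Both genotypes were male mice of strain C57Bl6/J at 3.5 months of age, carried Tcf21-MerCreMer and were given tamoxifen. Tcf21-MerCreMer is a tamoxifen-dependent Cre recombinase driven from Tcf21, a gene of the cardiac fibroblast lineage. The CF-KI library also carried Nlrp3-A350V on both alleles, an altered form of the inflammasome sensor that becomes active where Cre has acted. The control library carried Nlrp3-WT/WT. The number of animals behind each library is not given in the sources used here, so animal and genotype cannot be told apart.

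Imprinted genes are transcribed mainly from the allele inherited from 1 parent, and many of them restrain or promote growth before birth. In the chromosome 12 domain the maternal allele makes a chain of noncoding RNAs, Meg3, Rian and Mirg, which carry microRNAs and small nucleolar RNAs, while the paternal allele makes the protein-coding genes Dlk1, Rtl1 and Dio3. On chromosome 7 the maternal H19 and the paternal Igf2 share enhancers, and Igf2r removes Igf2 protein from the cell surface to lysosomes. Plagl1 and Peg3 encode zinc-finger proteins from the paternal allele. Cdkn1c encodes the cyclin-dependent kinase inhibitor p57, and Grb10 encodes an adaptor that dampens insulin and Igf1 receptor signalling. Parental origin was not measured here, since the matrices hold no allele counts.

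The CF-KI library held 15077 barcodes and 21603653 UMIs (unique molecular identifiers, 1 per captured molecule), and the control held 11257 barcodes and 18040776 UMIs. The median barcode had 1115 UMIs (CF-KI) or 1158 UMIs (control), and mitochondrial RNA made up a median share of 14.2% in CF-KI but 3.46% in the control. After removal of called doublets (15.3% of CF-KI and 3.02% of control barcodes) 12681 and 10858 barcodes were kept, of which 40 barcode sequences occurred in both libraries. Clusters were named from fixed markers as 11 classes that reached 50 nuclei in both libraries, written with the ending -like. The cardiomyocyte-like class contained 1 cluster dominated by mitochondrial RNA (1813 CF-KI and 217 control barcodes), so values for this class are also given without it. The fibroblast-like class (3685 and 3572 nuclei) was spread unevenly over clusters, with 471 and 2492 nuclei in a cluster led by Rgs17, 2551 and 207 in one led by Egfros, and 652 and 847 in one led by Cilp. Only 4 of 9 fibroblast markers were raised in the Egfros cluster. The B cell-like class was also led by Ccl5 and Gzma, genes of T and natural killer cells, and an airway epithelial-like class of 127 nuclei was found in the control alone. The kept barcodes held 11765 UMIs of the 10 genes in CF-KI and 19201 in the control. Levels are in CPM, the usual library-scaled count unit, with all non-mitochondrial UMIs of a class in 1 library as the total. Intervals (95%) describe counting error alone. In sums over a class, fewer expressing nuclei and less RNA per nucleus cannot be told apart.

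**Figure D1:**
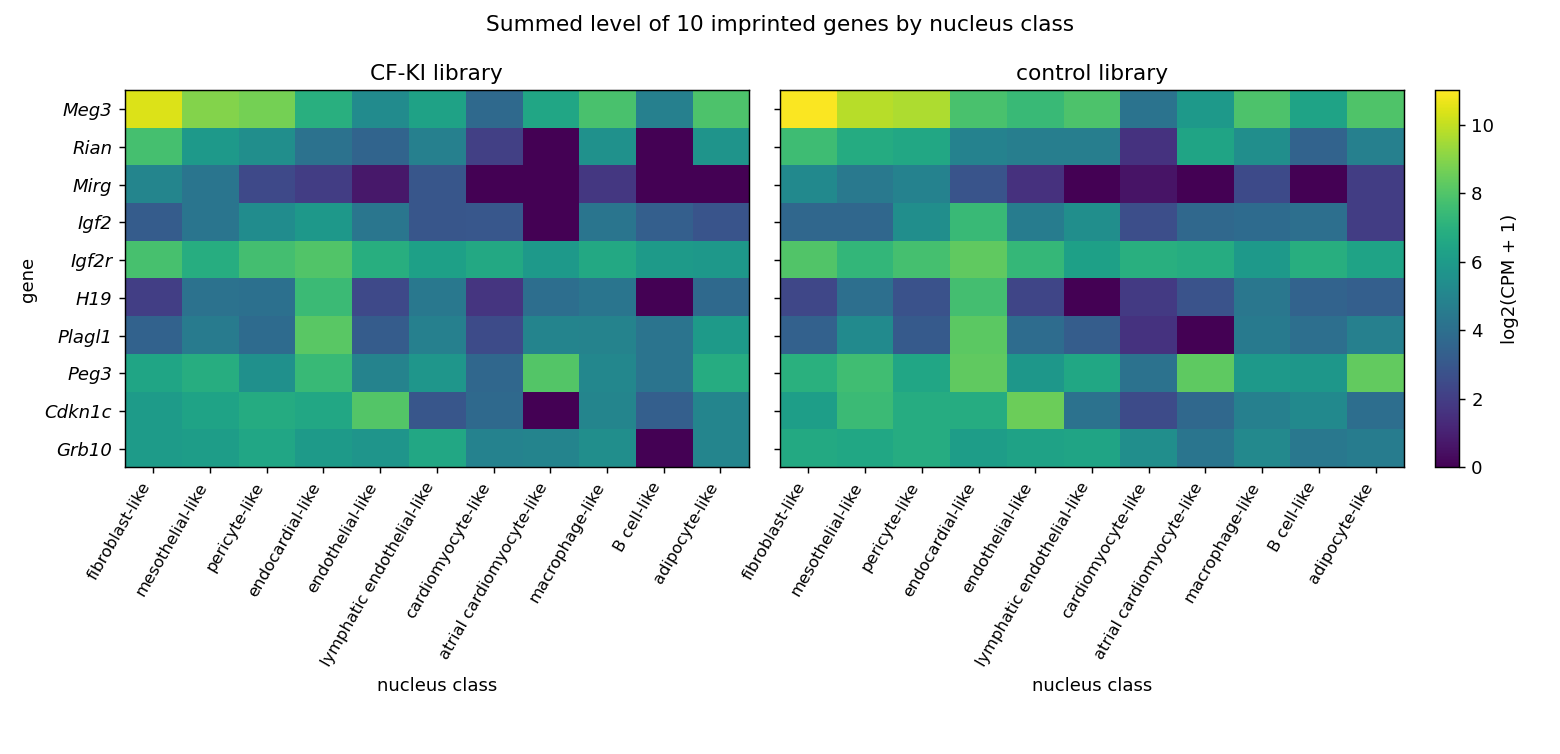
Summed level of each of the 10 genes, as log2(CPM + 1) on the colour scale, in 11 nucleus classes (columns) of the CF-KI and control libraries. Meg3 is brightest in fibroblast-like nuclei, H19 and Plagl1 in endocardial-like nuclei and Cdkn1c in endothelial-like nuclei, in both libraries.

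The 3 maternally expressed RNAs of chromosome 12 lay in line on the plus strand of GRCm38, Meg3 at chr12:109541001-109571726, Rian at chr12:109603940-109661716 and Mirg at chr12:109729764-109749460. The annotated gap was 32.2 kb between Meg3 and Rian and 68.0 kb between Rian and Mirg. RefSeq (GRCm38.p6) places 2 microRNA hairpins inside Meg3, 3 inside Rian, 14 inside Mirg and 1 inside H19, with 37 mature arms in all. The mature microRNAs were not measured here, and the sequences show what each host RNA carries. Capitals mark the seed, bases 2 to 8, which pairs with target RNAs. A seed was shared by only 1 pair of arms, miR-453 and miR-496a-5p, both inside Mirg.
mmu-miR-770-5p (Meg3): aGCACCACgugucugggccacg
mmu-miR-370-3p (Rian): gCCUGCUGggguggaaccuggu
mmu-miR-453 (Mirg): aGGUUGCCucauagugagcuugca
mmu-miR-496a-5p (Mirg): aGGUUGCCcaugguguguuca
mmu-miR-410-3p (Mirg): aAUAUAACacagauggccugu
mmu-miR-675-5p (H19): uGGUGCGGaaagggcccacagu
mmu-miR-675-3p (H19): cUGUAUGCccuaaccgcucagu

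The start regions of Meg3 and Rian are shown because the level of Rian relative to Meg3 is described below. Each sequence runs from 250 bases before to 50 bases after the RefSeq start, 5′ to 3′ on the gene's own strand, with CpG dinucleotides in capitals. The Meg3 region at the annotated gene start (chr12:109540746-109541045, plus strand) holds 13 CpG, a second listed Meg3 region (chr12:109545148-109545447) holds 1, and the Rian region (chr12:109603695-109603994, plus strand) holds 0, beside a median of 7 over all 32851 start regions of that length. A CpG was present in 94.6% of those regions.
Meg3: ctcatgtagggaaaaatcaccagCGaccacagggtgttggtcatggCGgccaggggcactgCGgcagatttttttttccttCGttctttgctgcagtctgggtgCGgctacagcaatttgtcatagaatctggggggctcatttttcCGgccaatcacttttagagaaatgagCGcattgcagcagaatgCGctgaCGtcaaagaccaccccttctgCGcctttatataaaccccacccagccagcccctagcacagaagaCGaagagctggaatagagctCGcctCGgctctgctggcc
Rian: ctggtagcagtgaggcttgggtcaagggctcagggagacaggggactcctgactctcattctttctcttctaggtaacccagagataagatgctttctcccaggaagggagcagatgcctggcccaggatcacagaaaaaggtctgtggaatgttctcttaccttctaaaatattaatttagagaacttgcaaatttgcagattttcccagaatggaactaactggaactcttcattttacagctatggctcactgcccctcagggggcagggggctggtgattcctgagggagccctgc

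Meg3 RNA was most abundant in fibroblast-like nuclei in both libraries, at 1389 CPM in CF-KI (4504 UMIs, interval 1349 to 1430) and 1972 CPM in the control (8165 UMIs, interval 1930 to 2015). Mesothelial-like nuclei followed with 501.5 and 895.5 CPM, and pericyte-like nuclei with 415.8 and 798.3 CPM. In each library the fibroblast-like interval did not overlap the mesothelial-like one, while the mesothelial-like and pericyte-like intervals overlapped. Cardiomyocyte-like nuclei had the lowest Meg3 level, 12.4 CPM in CF-KI and 17.1 in the control. The 3 RNAs summed were higher in fibroblast-like than in cardiomyocyte-like nuclei by a log2 ratio of 6.71 in CF-KI and 6.81 in the control. With doublets kept these were 4.60 and 5.58. After thinning each nucleus to 500 UMIs, which leaves out shallower nuclei, Meg3 was found in 43.1% of 3422 CF-KI and 53.9% of 3500 control fibroblast-like nuclei. Without thinning the shares were 54.8% and 72.5%. In cardiomyocyte-like nuclei, which serve as the low class, the thinned shares were 0.684% and 0.813%.

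Rian, the middle RNA of the chain and a host of small nucleolar RNAs, was also highest in fibroblast-like nuclei, at 214.1 CPM in CF-KI (694 UMIs) and 188.9 CPM in the control (782 UMIs). Its next class was mesothelial-like in both libraries, at 59.6 and 107.9 CPM. Mirg, the microRNA-rich RNA at the end of the chain, had the fewest UMIs of the 10 genes, with 122 for CF-KI and 203 for the control. Fibroblast-like nuclei held 82.6% and 74.6% of its UMIs in the named classes, at 30.8 and 36.2 CPM, with intervals that overlapped those of the next class. In thinned fibroblast-like nuclei Rian was found in 13.8% of CF-KI nuclei with a Meg3 UMI and 5.81% of those without one. The control shares were 12.1% and 4.83%. A Rian UMI was thus found more often beside a Meg3 UMI in both libraries, with intervals that did not overlap (12.1% to 15.7% against 4.81% to 6.94% in CF-KI, and 10.7% to 13.7% against 3.84% to 5.995% in the control). These intervals treat nuclei as independent. The class pools unlike clusters, and shares within each cluster were not compared. In thinned cardiomyocyte-like nuclei, a class with little Rian (3.23 and 2.01 CPM), a Rian UMI was found in 0.163% and 0.171%. Median depths before thinning were 920 and 1023 UMIs in fibroblast-like and 1521 and 2280.5 UMIs in cardiomyocyte-like nuclei.

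The protein-coding genes of the same domain, which the paternal allele transcribes, had few UMIs in these libraries. Dlk1, a transmembrane growth regulator, was seen with 2 CF-KI and 3 control UMIs over all kept barcodes. Dio3, a thyroid hormone deiodinase, had 4 and 1 UMIs. Rtl1, a retrotransposon-derived gene, had 14 and 4 UMIs, 12 and 3 of them in fibroblast-like nuclei. Meg3 had 5548 and 10349 UMIs in the same barcodes. Capture at the 3′ end differs between genes, so these counts are not a ratio of RNA molecules.

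**Figure D2:**
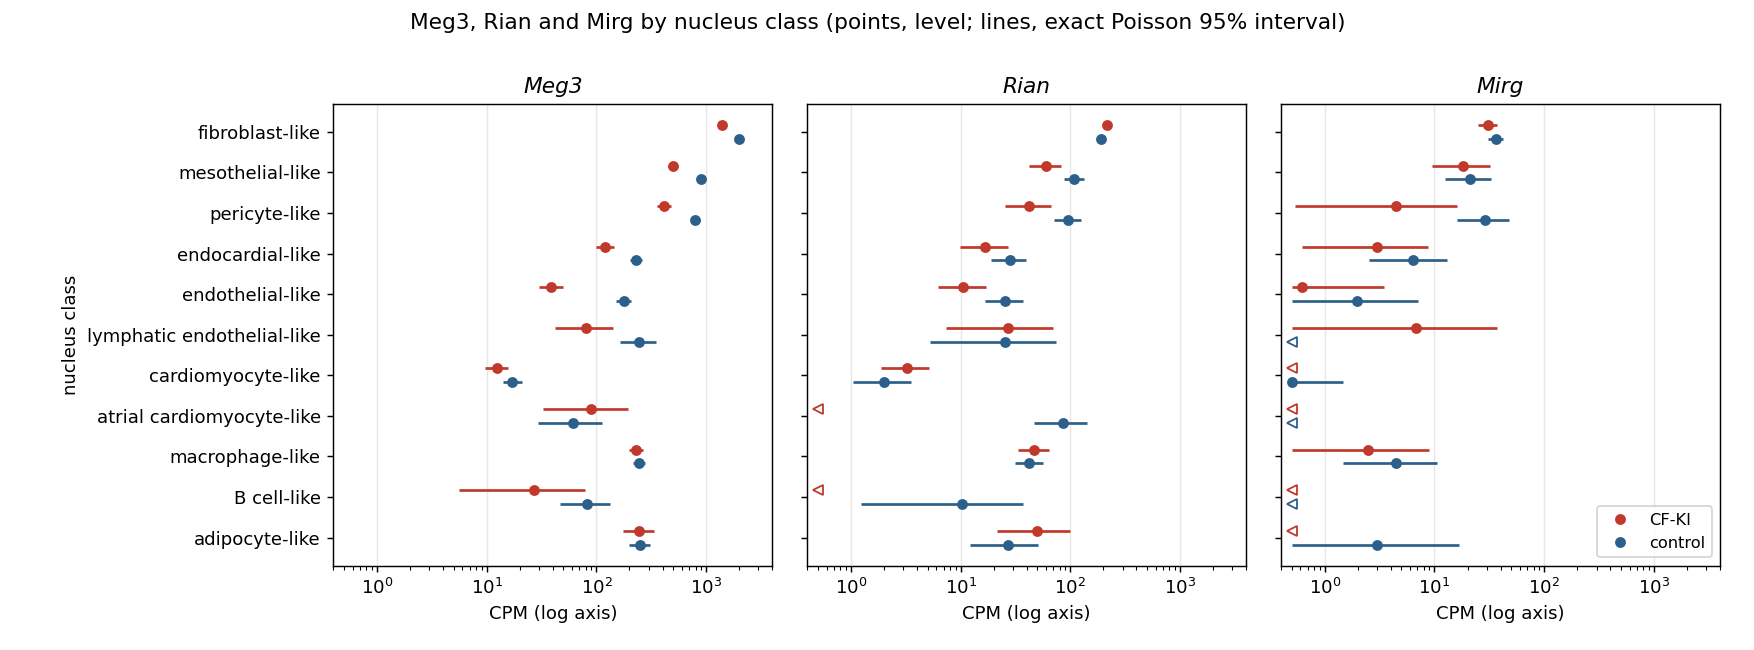
Level of Meg3, Rian and Mirg (CPM, log axis) in each class of the CF-KI (red) and control (blue) libraries. Points are levels, lines exact Poisson 95% intervals, open triangles mark classes with 0 UMIs, and intervals reaching below the axis are drawn to its left end. All 3 RNAs are highest in fibroblast-like nuclei, where Meg3 is lower in CF-KI (1389 against 1972 CPM) and Rian is not (214.1 against 188.9).

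Between genotypes Meg3 was lower in CF-KI in most classes. Over all kept barcodes it stood at 398.1 CPM in CF-KI and 650.0 in the control, a log2 ratio of -0.71 (interval -0.75 to -0.66). Within fibroblast-like nuclei, the class of the Tcf21 driver, the log2 ratio was -0.51 (interval -0.56 to -0.45). It was -0.54 in the Rgs17 cluster, -0.62 in the Egfros cluster and -0.35 in the Cilp cluster, so Meg3 was lower in CF-KI in each of these. The ratio was -0.84 in mesothelial-like, -0.94 in pericyte-like and -0.93 in endocardial-like nuclei. With at most 5% mitochondrial UMIs the endocardial-like ratio was 0.64 (interval -1.02 to 1.93), on 5 CF-KI UMIs. The lowest ratio was in endothelial-like nuclei, with 62 UMIs (38.6 CPM) in CF-KI and 181 UMIs (177.0 CPM) in the control, a log2 ratio of -2.19 (interval -2.64 to -1.77). These UMIs came from 36 of 1395 CF-KI and 75 of 875 control nuclei. With doublets kept, the ratio of the 3 RNAs summed was -0.61 there, against -2.04 without them. By mitochondrial band the endothelial-like Meg3 ratio was -3.87, -1.94, -2.67 and -0.08 from the lowest to the highest. The lowest band rested on 2 CF-KI UMIs (interval -6.9 to -2.0). The highest rested on 8 CF-KI and 2 control UMIs (interval -2.4 to 3.2). Macrophage-like nuclei showed 231.0 and 244.3 CPM and adipocyte-like nuclei 244.7 and 247.4 CPM, with intervals of the ratio that included 0. The macrophage-like ratio differed in sign between mitochondrial bands, at -1.23 (interval -2.09 to -0.47) for 0 to 5%, 0.37 for 5 to 10%, 2.28 (interval 1.30 to 3.45) for 10 to 20% and -0.07 above 20%. In cardiomyocyte-like nuclei the log2 ratio was -0.47 with the mitochondria-rich cluster and -1.07 without it (32 and 90 UMIs), but 0.38 (interval 0.13 to 0.63) with doublets kept.

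Other properties of the nuclei also differed between the libraries. Malat1, a nuclear-retained RNA, in fibroblast-like nuclei was at 189100 CPM in CF-KI and 207100 CPM in control nuclei, and in endothelial-like nuclei at 58850 and 92660 CPM. From the lowest to the highest mitochondrial band its log2 ratio was -0.50, 0.06, 0.09 and 0.15 in fibroblast-like nuclei. In endothelial-like nuclei it was -0.80, -1.05, -0.27 and 0.88, so the sign of the Malat1 ratio differed between bands in both classes. The 8 cardiomyocyte markers, which fibroblasts should lack, reached a sum of 16260 CPM in the CF-KI and 5381 CPM in the control fibroblast-like nuclei, with none of them at 0. The median of these markers was at 53.2% of its library-wide level in CF-KI and 26.8% in the control, a measure of free RNA. The 9 fibroblast markers summed to 24640 and 42450 CPM in those nuclei. In endothelial-like nuclei the fibroblast markers summed to 2943 and 3038 CPM and the cardiomyocyte markers to 17310 and 10260 CPM. Median mitochondrial shares were 15.9% and 5.94% in fibroblast-like nuclei. The part of these differences in the Meg3 ratios was not tested. Within bands of equal mitochondrial share the fibroblast-like Meg3 ratio was -1.03 at 0 to 5%, -0.42 at 5 to 10%, -0.58 at 10 to 20% and -0.74 above 20%, so Meg3 was lower in CF-KI in all 4 bands. The lowest band held only 49 CF-KI nuclei and the highest only 72 control nuclei. When an estimate of free RNA was subtracted from each class, the direction turned, with a fibroblast-like log2 ratio of 0.03 for Meg3 and 0.11 for the 3 RNAs summed. In endothelial-like nuclei, which had the lowest Meg3 ratio, this subtraction left no positive level for the 3 RNAs summed. The same held for macrophage-like and cardiomyocyte-like nuclei. The subtraction used the median marker level as if it were a share of UMIs, so it can take away too much. The turned fibroblast-like direction therefore shows dependence on this step and is not a measured direction.

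In fibroblast-like nuclei Rian had a log2 ratio of 0.18 (interval 0.03 to 0.33), whereas it was -0.86 in mesothelial-like, -1.18 in pericyte-like and -1.26 in endothelial-like nuclei. By fibroblast-like cluster the Rian ratio was 0.06 (Rgs17), -0.29 (Egfros) and 0.72 (Cilp). With nuclei of at most 5% mitochondrial UMIs it was -0.24 (interval -1.26 to 0.61). In the higher mitochondrial bands it was 0.51, 0.61 and 0.84, the last with an interval that included 0. Per 100 Meg3 UMIs, fibroblast-like nuclei held 15.4 Rian UMIs in CF-KI against 9.58 in the control. The log2 ratio of these was 0.69 (interval 0.53 to 0.84), a comparison chosen after its values were seen. It was 1.07 (interval 0.77 to 1.38) in the Cilp cluster and 0.60 (interval 0.27 to 0.92) in the Rgs17 cluster. In the Egfros cluster, where Rian was itself among the 10 leading genes, it was 0.34 with an interval that included 0. Within mitochondrial bands it was 0.78, 0.93, 1.19 and 1.58 from the lowest to the highest, and the interval of the lowest band (11 CF-KI Rian UMIs) included 0. In mesothelial-like nuclei Rian stood at 11.9 and 12.1 UMIs per 100 Meg3 UMIs, and in pericyte-like nuclei at 10.2 and 11.99. Mirg had 2.22 and 1.84 UMIs per 100 Meg3 UMIs in fibroblast-like nuclei, with an interval of the log2 ratio that included 0 (-0.11 to 0.65). Whether the ratio differs between classes was not tested.

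**Figure D3:**
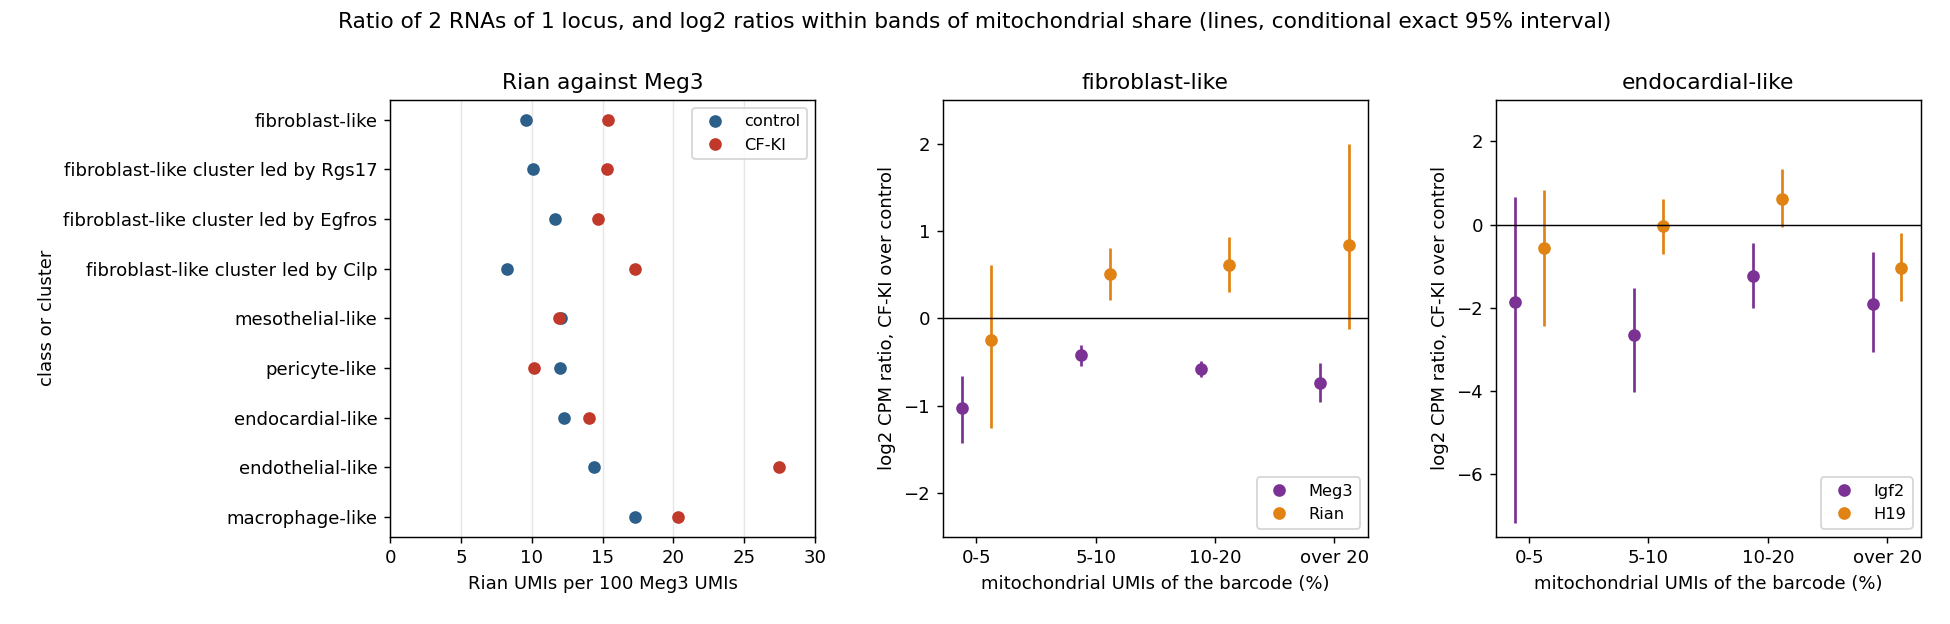
Left, Rian UMIs per 100 Meg3 UMIs in CF-KI (red) and control (blue) by class or cluster. Middle and right, log2 CPM ratio of CF-KI over control within bands of mitochondrial share for Meg3 and Rian in fibroblast-like nuclei and for Igf2 and H19 in endocardial-like nuclei, with conditional exact 95% intervals. Meg3 is below 0 in all 4 bands (-1.03 to -0.42), and Igf2 is below 0 in all 4 bands (-2.65 to -1.22).

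The second group of genes marked the endocardium, the inner lining of the heart chambers. H19, the noncoding RNA next to Igf2 (chr7:142575529-142578143, minus strand), stood at 180.4 CPM in CF-KI (182 UMIs) and 211.3 CPM in the control (234 UMIs) in endocardial-like nuclei. Its next class reached only 20.2 CPM in CF-KI (lymphatic endothelial-like, 3 UMIs) and 19.8 CPM in the control (macrophage-like, 22 UMIs). Endothelial-like nuclei, the lining of small vessels, had 4.36 and 3.91 CPM. On 7 and 4 endothelial-like UMIs, the log2 ratio of endocardial-like over endothelial-like H19 was 5.37 in CF-KI (interval 4.30 to 6.71) and 5.76 in the control (interval 4.38 to 7.64). In thinned nuclei H19 was found in 7.23% of CF-KI and 6.78% of control endocardial-like nuclei, against 0.0801% and 0.242% of endothelial-like nuclei.

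Plagl1, a zinc-finger regulator of other imprinted genes (chr10:13060504-13131694, plus strand), had the same leading class. It stood at 292.4 CPM in CF-KI (295 UMIs) and 299.0 CPM in the control (331 UMIs) in endocardial-like nuclei, a log2 ratio of -0.03 (interval -0.26 to 0.20). By mitochondrial band this ratio was -1.17, 0.14, 0.91 (interval 0.36 to 1.51) and 1.66 (interval 0.25 to 3.57) from the lowest to the highest, so it differed in sign between bands. Its next class was at 62.7 CPM in CF-KI (adipocyte-like, 10 UMIs) and 37.1 CPM in the control (mesothelial-like, 32 UMIs). H19 and Plagl1 were both among the 10 leading genes of the endocardial-like cluster, although neither was used to form it. In thinned endocardial-like nuclei H19 was found in 12.7% of CF-KI nuclei with a Plagl1 UMI and 6.46% of those without, and in 11.1% and 6.02% of control nuclei. The intervals with and without Plagl1 overlapped in both libraries.

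Igf2, the paternally expressed growth factor (chr7:142650766-142666816, minus strand, 72.6 kb from H19), was also highest in endocardial-like nuclei but differed between the libraries. It stood at 56.5 CPM in CF-KI (57 UMIs, interval 42.8 to 73.2) and 173.4 CPM in the control (192 UMIs, interval 149.7 to 199.8). In CF-KI this interval overlapped that of pericyte-like nuclei, the next class, and in the control it did not overlap the next. The control level was 3.07-fold the CF-KI level, a log2 ratio of -1.62 (interval -2.07 to -1.18). In thinned nuclei Igf2 was found in 2.96% of CF-KI and 5.86% of control endocardial-like nuclei, against 0.358% and 0.47% of cardiomyocyte-like nuclei. Per 100 H19 UMIs there were 31.3 Igf2 UMIs in CF-KI against 82.1 in the control, a log2 ratio of -1.39 (interval -1.93 to -0.86) that was also chosen after its values were seen. In the 4 mitochondrial bands the Igf2 log2 ratio was -1.85, -2.65, -1.22 and -1.90, and the interval of the lowest band, which held 27 CF-KI nuclei and 1 CF-KI Igf2 UMI, included 0. Pericyte-like nuclei had 40.0 and 42.1 CPM, so the difference did not appear there. In endocardial-like nuclei the 6 endocardial markers summed to 5379 CPM for CF-KI and 5835 CPM for the control, and the 8 cardiomyocyte markers to 20620 and 6977 CPM. Their part in the Igf2 ratio was not tested. An annotated antisense gene, Igf2os, overlaps Igf2, and whether the deposited counts used strand is not given in the sources used here.

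Peg3, a zinc-finger protein linked to cell death and metabolism (chr7:6703892-6730431, minus strand), had no single leading class. In the control its level was 330.9 CPM in adipocyte-like, 314.3 in endocardial-like and 310.8 in atrial cardiomyocyte-like nuclei, with overlapping intervals. In CF-KI atrial cardiomyocyte-like nuclei led with 267.6 CPM (18 UMIs), followed by endocardial-like nuclei with 167.5 CPM, again with overlapping intervals. Cardiomyocyte-like nuclei had 11.8 and 16.8 CPM. In the 9 classes that passed 20 UMIs Peg3 was always lower in CF-KI, with log2 ratios from -1.55 in adipocyte-like (18 and 111 UMIs) to -0.22 in atrial cardiomyocyte-like nuclei. The endocardial-like ratio was -0.91 (interval -1.18 to -0.64) and the fibroblast-like ratio -0.52 (interval -0.73 to -0.31). Within classes there were exceptions, a ratio of 1.24 in the mitochondria-rich cardiomyocyte-like cluster and 0.09 in the Egfros cluster. In endocardial-like nuclei the Peg3 ratio changed sign over the mitochondrial bands, from -3.17 at 0 to 5% and -0.94 at 5 to 10% to 0.10 at 10 to 20% and 2.52 above 20%. The highest band rested on 1 control Peg3 UMI.

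**Figure D4:**
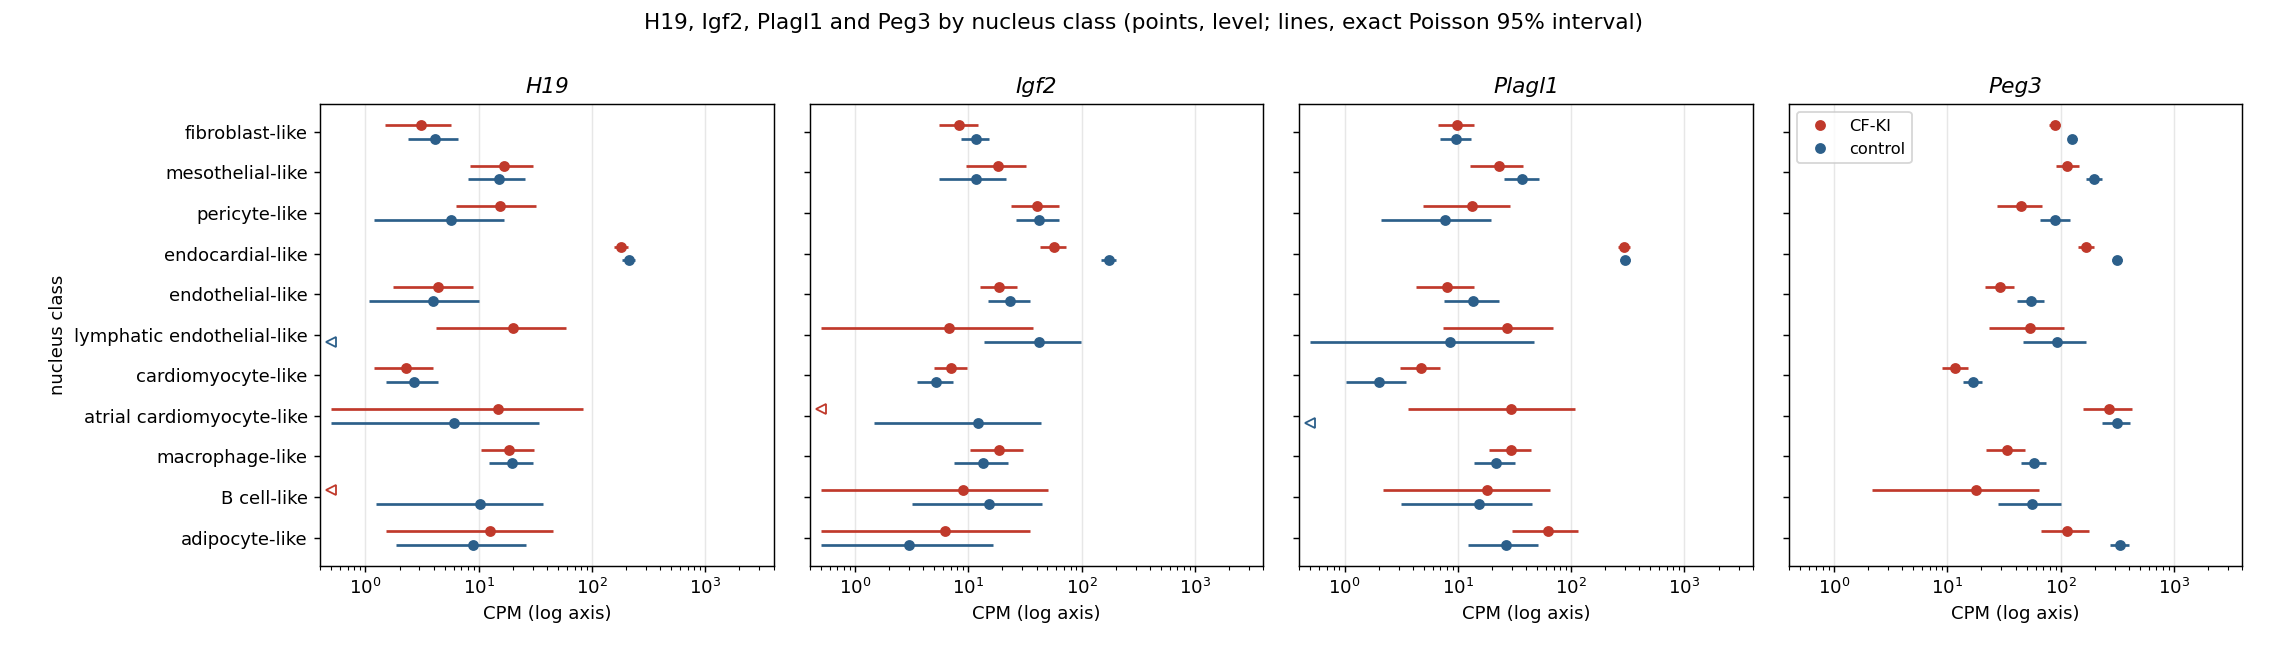
Level of H19, Igf2, Plagl1 and Peg3 (CPM, log axis) in each class of the CF-KI (red) and control (blue) libraries, with exact Poisson 95% intervals. Open triangles mark classes with 0 UMIs, and intervals reaching below the axis are drawn to its left end. H19 and Plagl1 stand above 180 CPM in endocardial-like nuclei of both libraries, and Igf2 is at 56.5 CPM in CF-KI and 173.4 in the control.

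The start regions of Plagl1 and Peg3 are shown because these regulators differ in class pattern and because the Peg3 region holds letters of the Plagl1 binding core. CpG dinucleotides are in capitals. The Plagl1 region (chr10:13090582-13090881, plus strand) lies inside the annotated gene and holds 26 CpG. The Peg3 region (chr7:6730370-6730669, minus strand) holds 13 CpG. The Plagl1 core, GGGGCCCC, which reads the same on both strands, was found once, from position 50 of the Peg3 region. It occurs in 1.08% of the 32851 start regions and in none of the other 12 start regions listed for 8 of the 10 genes. A core searched for Yy1, GCCATNTT on either strand (6.05% of all regions), and a Ctcf core on either strand (0.0365%), were not found in those 13 regions. These are matches of letters, not binding. H19 and Cdkn1c were not matched in the table.
Plagl1: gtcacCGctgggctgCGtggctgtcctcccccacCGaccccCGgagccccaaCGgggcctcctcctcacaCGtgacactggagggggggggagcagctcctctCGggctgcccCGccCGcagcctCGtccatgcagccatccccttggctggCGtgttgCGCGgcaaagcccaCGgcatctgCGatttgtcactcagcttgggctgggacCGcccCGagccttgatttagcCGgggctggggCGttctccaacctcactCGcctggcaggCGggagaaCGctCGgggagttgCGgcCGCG
Peg3: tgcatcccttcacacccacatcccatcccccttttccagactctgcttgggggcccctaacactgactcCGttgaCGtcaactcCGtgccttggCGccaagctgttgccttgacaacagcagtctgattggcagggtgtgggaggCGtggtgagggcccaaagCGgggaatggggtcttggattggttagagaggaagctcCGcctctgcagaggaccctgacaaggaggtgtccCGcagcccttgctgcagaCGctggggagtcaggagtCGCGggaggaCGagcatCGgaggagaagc

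Igf2r, the receptor that clears Igf2 (chr17:12682406-12769664, minus strand), was broad. Its level was highest in endocardial-like nuclei, 260.7 CPM in CF-KI (263 UMIs) and 314.3 in the control (348 UMIs), followed by fibroblast-like nuclei with 219.9 and 261.1 CPM and pericyte-like nuclei with 206.8 and 212.5 CPM. The endocardial-like and fibroblast-like intervals overlapped in CF-KI and did not overlap in the control. Igf2r was lower in CF-KI in fibroblast-like (log2 ratio -0.25), endothelial-like (-0.40) and endocardial-like nuclei (-0.27), each with an interval below 0. With free RNA subtracted, by an estimate that can take away too much, the ratio was 0.07 in fibroblast-like and 0.30 in endocardial-like nuclei. With at most 5% mitochondrial UMIs the ratio was 0.06 in fibroblast-like nuclei (interval -0.86 to 0.85). Macrophage-like nuclei were the exception, with 97.6 CPM in CF-KI (79 UMIs) and 60.2 CPM in the control (67 UMIs), a log2 ratio of 0.70 (interval 0.21 to 1.19). Airn, the noncoding RNA that overlaps Igf2r on the opposite strand, was at 101.3 and 48.5 CPM in macrophage-like nuclei, a log2 ratio of 1.06. Igf2r and Airn therefore stood higher together there, and their reads cannot be told apart if strand was not used. Thus the endocardial-like class held the highest level of the growth factor Igf2 and of its clearance receptor in both libraries.

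Cdkn1c, the p57 cell cycle inhibitor (chr7:143458339-143461050, minus strand), was highest in endothelial-like nuclei, at 262.4 CPM in CF-KI (421 UMIs) and 365.7 CPM in the control (374 UMIs). The log2 ratio was -0.48 (interval -0.68 to -0.27), though it was 0.50 in the band of 5 to 10% mitochondrial UMIs and between -0.81 and -0.28 in the other 3. Mesothelial-like nuclei, the outer covering of the heart, were second in the control with 179.8 CPM (155 UMIs) and had 82.6 CPM in CF-KI (54 UMIs), a log2 ratio of -1.12 (interval -1.60 to -0.67). Lymphatic endothelial-like nuclei had only 1 and 2 UMIs. Cardiomyocyte-like nuclei had 12.7 and 4.70 CPM, a log2 ratio of 1.44. Without the mitochondria-rich cluster these were 7.45 and 4.34 CPM, a log2 ratio of 0.78 with an interval (-0.02 to 1.60) that included 0.

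Grb10, the receptor adaptor (chr11:11930508-12038683, minus strand), was found in every class of the control. In the control its level was 113 CPM in pericyte-like, 100.5 in fibroblast-like, 41.9 in cardiomyocyte-like and 35.0 in macrophage-like nuclei. The lowest control levels were in adipocyte-like (23.9 CPM), B cell-like (20.4 CPM) and atrial cardiomyocyte-like nuclei (18.3 CPM), on 8, 4 and 3 UMIs. In CF-KI lymphatic endothelial-like nuclei led with 94.3 CPM (14 UMIs), beside 91.2 CPM in pericyte-like nuclei, and neighbouring classes had overlapping intervals. In the fibroblast-like class Grb10 was at 64.5 CPM for CF-KI (209 UMIs) and 100.5 for the control (416 UMIs), a log2 ratio of -0.64 (interval -0.89 to -0.40). This ratio lay between -0.88 and -0.61 in all 4 mitochondrial bands. Cardiomyocyte-like nuclei without the mitochondria-rich cluster had a similar ratio of -0.62 (interval -0.95 to -0.30).

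Counted together, 8 of the 10 genes had the same leading class in both libraries, the exceptions being Peg3 and Grb10. With at most 5% mitochondrial UMIs the count was 4. The share over all genes was not counted, so the 8 has no background beside it. The interval of the leading class overlapped the next for Mirg in both libraries and for Igf2 and Igf2r in CF-KI. Few of them passed a 2-fold difference between genotypes, counted among genes with at least 20 UMIs over both libraries in a class and with counts under 3 set to 3. In fibroblast-like nuclei all 10 passed the UMI minimum and 0 passed 2-fold, beside 5.27% of 12610 genes higher and 2.83% lower in CF-KI. Of the 10 ratios 8 were negative, with a median of -0.33 beside -0.02 for all genes. In endocardial-like nuclei 9 passed the minimum and Igf2 alone was past 2-fold lower (background 3.38% lower and 6.35% higher). All 9 endocardial-like ratios were negative, with a median of -0.27 beside -0.04 for all genes. In endothelial-like nuclei 8 passed the minimum, and Meg3 and Rian were past 2-fold lower (background 3.98% lower, 2.70% higher). All 8 were negative, with a median of -0.69 beside -0.06. The share of all genes with a ratio below 0 was not counted, and the 10 genes were chosen with these ratios known. The counts of signs are therefore description only.

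Over all kept barcodes 0 of the 10 genes were past 2-fold (background 3.32% higher, 5.75% lower). Mesothelial-like nuclei had 1 of 10 genes past 2-fold lower, Cdkn1c (background 4% lower, 6.43% higher). Pericyte-like nuclei had 2 of 7, Rian and Peg3 (background 5.68% lower, 10.7% higher). Lymphatic endothelial-like nuclei had 1 of 3, Meg3 (background 5.95% lower, 9.05% higher), and adipocyte-like nuclei 1 of 3, Peg3 (background 8.15% lower, 9.23% higher). In macrophage-like nuclei 9 genes passed the minimum, 0 were past 2-fold in either direction (background 6.29% higher, 5.29% lower) and 6 of 9 ratios were positive. Their median was 0.20 beside -0.02 for all genes. Cardiomyocyte-like nuclei had Cdkn1c and Plagl1 past 2-fold higher among 9 genes (background 16.5% higher, 2.17% lower). Without the mitochondria-rich cluster 7 genes passed, with Plagl1 higher (background 10.1%) and Meg3 lower (background 2.15%). Plagl1 rested there on 19 and 10 UMIs. The 2 genes passing in atrial cardiomyocyte-like nuclei and the 1 in B cell-like nuclei were within 2-fold (backgrounds 19.8% and 6.96% higher, 10.5% and 14.9% lower). In atrial cardiomyocyte-like nuclei Rian had 0 UMIs in CF-KI, where 3 UMIs would be 44.6 CPM and the exact Poisson interval reaches 54.8 CPM, and 14 UMIs (85.3 CPM) in the control.

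**Figure D5:**
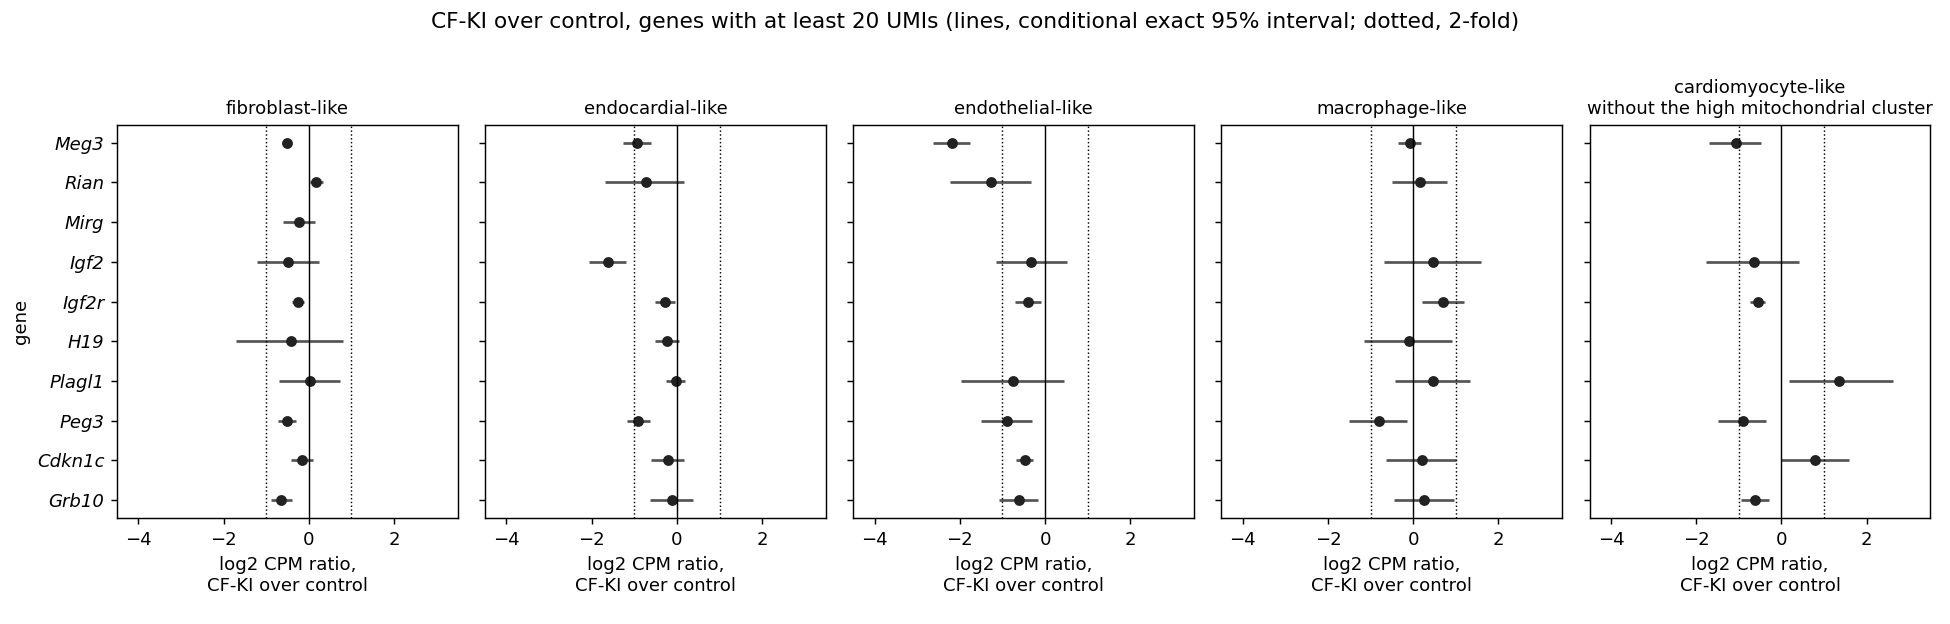
Log2 CPM ratio of CF-KI over control for each of the 10 genes with at least 20 UMIs, in 5 classes, with conditional exact 95% intervals; dotted lines mark 2-fold. In fibroblast-like nuclei all 10 lie within 2-fold, with Rian at 0.18 and Meg3 at -0.51, and the lowest ratio is that of Meg3 in endothelial-like nuclei (-2.19).

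The genes most like each member over the 22 combinations of class and library were ranked by Pearson's r of log2(CPM + 1) among 8195 genes. This is a description over points that share 2 libraries and a small number of classes. Sgce, itself an imprinted gene, was nearest to Meg3 (r = 0.881), ahead of Ccdc80 and Col6a2. Slc22a17 was nearest to Rian (r = 0.920), and Meg3 and Rian reached 0.809 with each other. Npr3, the natriuretic peptide clearance receptor and an endocardial marker used for naming, was nearest to both H19 (0.802) and Plagl1 (0.832), which reached 0.738 with each other. H19 and its neighbour Igf2 reached only 0.344. Esam, a junction protein of endothelium, was nearest to Cdkn1c (0.904), and Airn to Igf2r (0.793). Cnep1r1 was nearest to Grb10 (0.948), Ltbp3 to Peg3 (0.799) and Ndfip2 and Mapk12 to Igf2 (both 0.852). Mirg had too few UMIs to be ranked.

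Other imprinted genes, 57 of a list of 60 with a row in the matrices, give the surroundings of the 10. In fibroblast-like nuclei 34 passed the UMI minimum, with a median log2 ratio of -0.06. Of these 1 was past 2-fold higher and 0 lower (background 5.27% higher, 2.83% lower). That 1 was Kcnq1, a potassium channel gene, with 17 and 3 UMIs. Kcnq1ot1, the antisense RNA that silences the domain of Cdkn1c, was the most abundant of the list at 1079 and 1137 CPM, followed by Cd81 and Gnas. Zrsr1, a splicing factor retrogene, was higher in CF-KI at 91.3 and 45.9 CPM (log2 ratio 0.99) and Tssc4 lower at 36.7 and 61.1 CPM (-0.74). In endocardial-like nuclei 28 passed, with Commd1 and Gab1 past 2-fold higher and 0 lower (background 6.35% higher, 3.38% lower). The median there was 0.06. In endothelial-like nuclei 28 passed, with Tssc4 (-1.08) and Mest (-1.06) past 2-fold lower (background 3.98% lower, 2.7% higher). The median there was -0.10.

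The insulin-like growth factor pathway, a list of 29 genes, gives the surroundings of Igf2, Igf2r and Grb10. In fibroblast-like nuclei 24 passed, with 1 past 2-fold higher and 0 lower (background 5.27% higher, 2.83% lower). The 1 higher was Grb14, another receptor adaptor, at 31.5 and 13.04 CPM (log2 ratio 1.27). Grb14 was more abundant in cardiomyocyte-like nuclei without the mitochondria-rich cluster, at 214.4 and 168.4 CPM (0.35). Its ratio was also above 0 in macrophage-like (1.95), mesothelial-like (0.75), endocardial-like (0.67) and endothelial-like nuclei (0.39), though the last 3 intervals included 0. The part of free RNA in the fibroblast-like Grb14 ratio was not tested. The median fibroblast-like ratio was -0.06, but the growth factor Igf1 stood at 111.0 CPM in CF-KI and 211.1 in the control (-0.93). The binding proteins Igfbp4 (295.2 and 542.9 CPM, -0.88) and Igfbp7 (1071 and 1807 CPM, -0.75) were also lower in CF-KI, while Igfbp5 (393.0 and 324.9 CPM, 0.27) was higher. The fibroblast markers summed were lower in CF-KI in these nuclei too, and the class was spread unevenly over clusters. The part of either in these ratios was not tested. In endocardial-like nuclei 21 passed, with the insulin receptor substrate Irs2 past 2-fold higher (21 and 6 UMIs) and 0 lower. The background there was 6.35% higher and 3.38% lower. Igf1 had 20.8 and 37.0 CPM there and the insulin receptor Insr 88.2 and 124.6 CPM (log2 ratios -0.83 and -0.50), whereas Igfbp5, at 1557 and 1464 CPM, differed little. In endothelial-like nuclei 19 passed and 0 were past 2-fold (background 2.7% higher, 3.98% lower), with a median of -0.12. In cardiomyocyte-like nuclei without the mitochondria-rich cluster 22 passed, with 3 past 2-fold higher and 1 lower (background 10.1% higher, 2.15% lower). Igf1 (1.65) and Igfbp7 (1.05) were among those higher, and the RNA-binding protein gene Igf2bp2 was the 1 lower (-1.14, 10.9 and 24.1 CPM). Igf1 rested there on 42 and 18 UMIs (9.78 and 3.12 CPM), below its fibroblast-like levels of 111.0 and 211.1 CPM.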

How the data were processed

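Each library was deposited by the authors as a filtered matrix of UMI counts per gene and nucleus, made with Cell Ranger 6.1.1 on mm10 per the submitters' processing notes. Whether strand and intronic reads were counted is not given in the sources used here. Barcodes with at least 200 genes were kept, doublets called by Scrublet were removed, and no mitochondrial limit was set. Nuclei were clustered with scanpy 1.11.5 and leidenalg 0.10.2, leaving the 10 genes and all listed genes out of the variable genes, and clusters were named from fixed markers. Counts were summed by class and library and divided by non-mitochondrial UMIs. With 1 library per group there is no test: levels have exact Poisson intervals, ratios conditional exact binomial intervals and shares Clopper-Pearson intervals (95%), from scipy 1.17.1, covering counting error only. The ratio code was tested on simulated data. For scaling, edgeR 4.0.16 and DESeq2 1.42.0 gave normalization factors only. Named genes are the 10 members, the 3 genes of each list with most UMIs, highest ratio and lowest ratio, and the 3 nearest genes by correlation. Members and lists were chosen with earlier results of these data known. Sequences are from RefSeq on GRCm38.p6. A listed gene is not reported here.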

Additional observations from a re-analysis of the deposited data

Results flagged for a closer look

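Some genes had ratios of CF-KI over control on opposite sides of 0 in different classes, with intervals that excluded 0. The difference between classes was not tested. Rian, the chromosome 12 noncoding RNA, had a log2 ratio of 0.1806 in fibroblast-like nuclei but -0.8554 in mesothelial-like, -1.18 in pericyte-like and -1.263 in endothelial-like nuclei. Igf2r, the clearance receptor for Igf2, had a ratio of 0.6976 in macrophage-like nuclei but -0.3174 in cardiomyocyte-like, -0.2475 in fibroblast-like, -0.3956 in endothelial-like and -0.2696 in endocardial-like nuclei. Cdkn1c, the p57 cell cycle inhibitor, had a ratio of 1.44 in cardiomyocyte-like nuclei but -1.123 in mesothelial-like and -0.4789 in endothelial-like nuclei. Without the mitochondria-rich cluster the interval of the cardiomyocyte-like Cdkn1c ratio included 0.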

How the results depend on the processing

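No paired analysis was possible because each group has 1 library. Of 106 alternative values for the main comparisons 83 stayed within the counting interval or, for the count of genes with the same highest class, within 1.5 times the reported count. Some of the 83 could not have moved. Scaling factors and the choice of denominator cannot change Rian over Meg3 or Igf2 over H19. Leaving out clusters over 50% mitochondrial cannot change these 2 or the fibroblast-like, endothelial-like and macrophage-like sums. The 83 is therefore not a measure of stability. The log2 ratio of CF-KI over control for Meg3, Rian and Mirg summed in fibroblast-like nuclei (-0.43) was -0.90 with at most 5% mitochondrial UMIs, -0.35 with at least 500 genes, -0.48 with doublets kept, 0.11 with free RNA subtracted, -0.55 after thinning to 500 UMIs and -0.58 with mitochondrial UMIs in the denominator. In cardiomyocyte-like nuclei (-0.33) it was -0.91 with the 5% limit, -0.82 with at least 500 genes, 0.50 with doublets kept and -1.03 without clusters over 50% mitochondrial. In endothelial-like nuclei (-2.04) it was -2.80 with the 5% limit, -0.61 with doublets kept and -2.45 with libraries clustered separately, and in macrophage-like nuclei (-0.05) it was -1.40 with the 5% limit and 0.37 with separate clustering. Fibroblast-like over cardiomyocyte-like was 7.17, 7.15, 4.60 and 7.53 in CF-KI (5% limit, 500 genes, doublets kept, mitochondrial clusters out) and 7.16 and 5.58 in the control (5% limit, doublets kept). With the 5% limit 4 genes, in place of 8, kept the same highest class in both libraries. Igf2 over H19 was -2.04 with at least 500 genes. Among single genes the sign turned with the 5% limit for Rian (-0.24) and Igf2r (0.0602) in fibroblast-like nuclei and Meg3 in endocardial-like nuclei (0.64). These rested on 11, 13 and 5 CF-KI UMIs with intervals that included 0, so they give no direction. With doublets kept the sign turned for Meg3 in cardiomyocyte-like nuclei (0.38). With free RNA subtracted it turned for Meg3 (0.0341) and Igf2r (0.0678) in fibroblast-like and Igf2r in endocardial-like nuclei (0.30). In lymphatic endothelial-like nuclei under the 5% limit no CF-KI Meg3 UMI was found. The value of 2.67 there came from setting counts under 3 to 3. Its interval had no lower end, so it gives no direction. The causes were not tested. Subtraction left no positive level for the sum in cardiomyocyte-like, endothelial-like or macrophage-like nuclei. The estimate can therefore take away too much, and signs that turned with it give no direction.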
